A study of Homo sapiens with 12 samples.

Results

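The IL6-family cytokines, their receptor chains and the colony-stimulating factors were described in the U-87 MG line, an established line of human glioma cells. The set of 10 genes was given as a list of names: the cytokines IL6, LIF and IL11, the colony-stimulating factors CSF1, CSF2 and CSF3, and the receptor genes IL6ST, LIFR, OSMR and IL6R. Each was read through the probe sets that carry its symbol alone. This gave 27 probe sets for 9 genes, out of 41097 such probe sets for 19775 genes on the array. CSF2 was not analysed here.

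Each line carried a stably transfected short hairpin RNA, directed at p105 in shp105 cells and a control hairpin in shControl cells. p105 is the NFKB1 product from which the NF-kB subunit p50 is made. Cells of each line received 100 uM temozolomide (TMZ), a DNA-methylating glioma drug, or the control DMSO, for 16 h. The groups were shp105 cells with TMZ, shp105 cells with DMSO, shControl cells with TMZ and shControl cells with DMSO, each with 3 arrays of total RNA. All 4 groups shared the U-87 MG background, a stably transfected hairpin and a medium with 10% FBS, so no group was untransfected. The labels name neither the hairpin sequences nor whether a line is a clone or a pool. They call the replicates biological but name no separate transfections, and the spread behind the p-values is then that between these samples only, which may be technical.

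IL6-family cytokines act through receptor complexes that contain gp130, the product of IL6ST. IL6 and IL11 first bind a ligand-specific chain (IL6R, IL11RA), whereas LIF and oncostatin M bring gp130 together with LIFR or OSMR. JAK kinases bound to these chains then phosphorylate STAT3, and the STAT3 target SOCS3 feeds back on the receptor. CSF1 and CSF3 are colony-stimulating factors that support macrophages and neutrophils through CSF1R and CSF3R. In glioma, IL6 and LIF are known as activators of STAT3, and CSF1 as a signal to microglia and macrophages. IL6, LIF and CSF3 are known targets of NF-kB in several cell types.

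Each value is a log2 expression level of 1 probe set, and the probe set with the highest mean stood for a gene. The medians of the 12 arrays lay between 5.04 and 5.09. Array controls whose sequences the cells lack reached 4.30 at most, which served as the background level. NFKB1, the gene behind p105, stood at 7.16 ± 0.05 in shp105 cells and 7.41 ± 0.11 in shControl cells with TMZ (SD, n = 3 each), and it passed the test there with a log2 difference of -0.25 (limma adjusted p = 0.0204). With DMSO it stood at 7.20 ± 0.06 in shp105 cells and 7.32 ± 0.09 in shControl cells and did not pass (adjusted p = 0.260). The hybridization spike-ins, RNAs added at a fixed amount, also differed between the lines, at 11.32 ± 0.13 in shp105 and 10.95 ± 0.09 in shControl cells with TMZ, and at 11.13 ± 0.10 in shp105 and 10.63 ± 0.05 in shControl cells with DMSO. RNA quality, read as the GAPDH signal at the 3' end less that at the 5' end, gave 0.37 to 0.44 in shp105 and 0.27 to 0.32 in shControl cells with TMZ, and 0.33 to 0.40 in shp105 and 0.22 to 0.27 in shControl cells with DMSO. The same difference for ACTB was 3.01 to 3.15 in shp105 and 2.78 to 2.94 in shControl cells with TMZ, and 2.94 to 3.14 in shp105 and 2.95 to 3.07 in shControl cells with DMSO, where the lines overlapped. Their part in the line differences was not tested, other than by adding the mean spike-in level of each array to the fit.

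Between the lines, the secreted factors CSF3, IL6 and LIF were lower in shp105 cells under either treatment, while CSF1 and the IL6 receptor chain IL6R were higher. The shared chain IL6ST was slightly higher and the oncostatin M receptor OSMR slightly lower. With DMSO, 4 of the 9 measured genes were higher and 4 lower in shp105 cells, and IL11 did not pass. With TMZ, 3 were higher and 4 lower, and IL11 and LIFR did not pass. A gene was called at a Benjamini-Hochberg adjusted p under 0.05 in limma's moderated test over all 19775 genes. Of all genes, 19.9% were called in DMSO, with 8.34% higher and 11.6% lower in shp105 cells. In TMZ it was 21.1%, with 10.1% higher and 11.0% lower. The median log2 difference of the 9 genes was 0.01 in TMZ and -0.22 in DMSO, against -0.01 for all genes under either treatment. Both medians are the values of IL11, whose 2 probe sets disagree, and with its other probe set they were -0.23 in TMZ and -0.32 in DMSO, a reading added after the data were seen. The ranges of the shp105 and shControl arrays shared no value for 9 of the 9 genes in DMSO and 7 of 9 in TMZ, where this held for 35.9% and 35.7% of all genes.

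**Figure D1:**
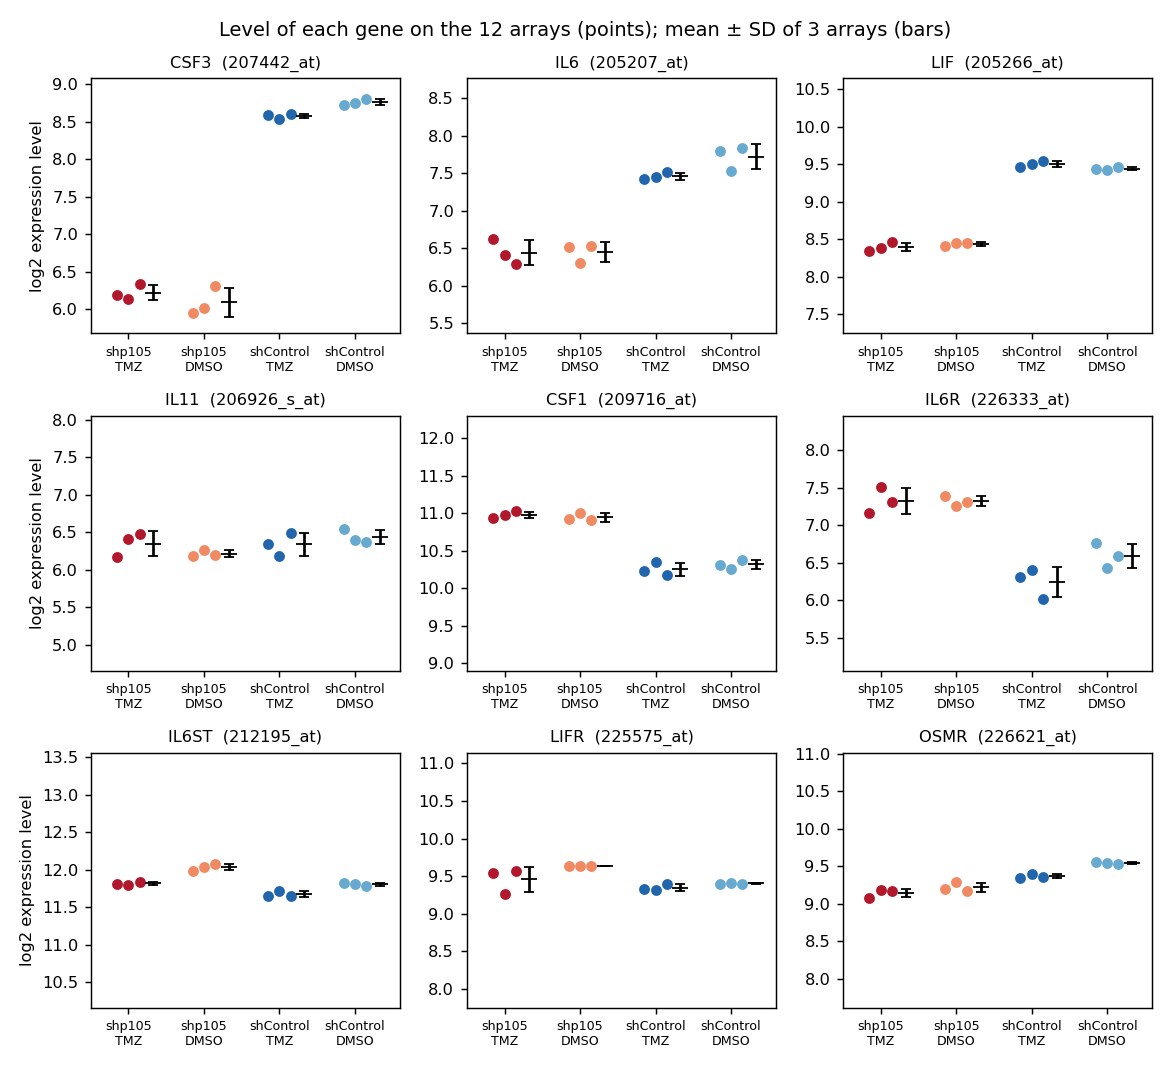
Log2 expression level (vertical axis, each panel spanning the same number of units) of the 9 measured genes on every array, with shp105 cells in red tones and shControl cells in blue tones, and the mean ± SD of 3 arrays as a black bar. CSF3, IL6 and LIF lie lower, and CSF1 and IL6R higher, on all 6 shp105 arrays than on all 6 shControl arrays.

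CSF3, which encodes the granulocyte colony-stimulating factor G-CSF, showed the largest line difference of the set. Its log2 level was 6.19, 6.14 and 6.33 in shp105 cells with TMZ, against 8.59, 8.54 and 8.60 in shControl cells with TMZ. With DMSO it was 5.95, 6.02 and 6.31 in shp105 cells and 8.73, 8.75 and 8.81 in shControl cells. Every shp105 array thus lay more than 2 log2 units below every shControl array, and above the background level. The log2 difference was -2.35 (SE 0.09, adjusted p = 4.92e-09) in TMZ and -2.67 (SE 0.09, adjusted p = 1.71e-09) in DMSO, or 5.11-fold and 6.37-fold lower. By size, CSF3 ranked 56 of 19775 genes in TMZ and 44 in DMSO.

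IL6, the founding cytokine of the family and an inducer of the acute phase response, was also lower in shp105 cells. It read 6.63, 6.41 and 6.29 in shp105 cells with TMZ, and 7.43, 7.45 and 7.51 in shControl cells with TMZ. With DMSO the arrays gave 6.52, 6.30 and 6.53 in shp105 cells and 7.80, 7.53 and 7.84 in shControl cells. No shp105 array reached the lowest shControl array. The difference was -1.02 (SE 0.10, adjusted p = 2.26e-05) in TMZ and -1.27 (SE 0.10, adjusted p = 3.53e-06) in DMSO, which is 2.03-fold and 2.41-fold lower.

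LIF, the leukemia inhibitory factor, was lower in shp105 cells by a similar amount under either treatment. Its levels were 8.35, 8.39 and 8.46 in shp105 cells with TMZ, against 9.47, 9.50 and 9.54 in shControl cells with TMZ. They were 8.41, 8.45 and 8.45 in shp105 cells with DMSO, against 9.43, 9.43 and 9.46 in shControl cells with DMSO. The lines were thus apart by about 1 log2 unit, with a spread within groups of at most 0.06 (SD). In TMZ the difference was -1.10 (SE 0.05, adjusted p = 2.45e-08) and in DMSO -1.01 (SE 0.05, adjusted p = 5.28e-08).

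IL11, a gp130 cytokine known for roles in fibrosis and bone, gave different answers in its 2 probe sets. The brighter one stood for the gene and did not pass in either treatment. It averaged 6.35 ± 0.16 in shp105 and 6.34 ± 0.15 in shControl cells with TMZ, and 6.21 ± 0.04 in shp105 and 6.44 ± 0.10 in shControl cells with DMSO (SD, n = 3 each). The other was lower on every shp105 array than on any shControl array. It read 6.00, 5.61 and 5.88 in shp105 cells with TMZ, against 6.78, 6.55 and 6.56 in shControl cells, a difference of -0.80 (SE 0.10, adjusted p = 0.000155 over all 41097 probe sets). With DMSO it read 5.80, 5.79 and 5.93 in shp105 cells, against 6.49, 6.36 and 6.51 in shControl cells, a difference of -0.62 (SE 0.10, adjusted p = 0.00122). The line difference of IL11 therefore rests on which probe set is read, and no call is made for the gene.

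CSF1, the macrophage colony-stimulating factor, went the other way from CSF3. It read 10.94, 10.98 and 11.03 in shp105 cells with TMZ, against 10.23, 10.35 and 10.18 in shControl cells with TMZ. With DMSO it read 10.92, 11.01 and 10.91 in shp105 cells, against 10.32, 10.26 and 10.38 in shControl cells. All 6 shp105 arrays were above all 6 shControl arrays. The difference was 0.73 (SE 0.06, adjusted p = 4.46e-06) in TMZ and 0.63 (SE 0.06, adjusted p = 1.49e-05) in DMSO, or 1.65-fold and 1.54-fold higher. Its 3 dimmer probe sets were all on the higher side, with log2 differences of 0.34 to 0.52 in TMZ and 0.06 to 0.35 in DMSO. In TMZ those at 0.44 and 0.52 passed (adjusted p = 0.00547 and 0.0107 over all 41097 probe sets), and that at 0.34 did not (0.114). In DMSO that at 0.35 passed (adjusted p = 0.0208), and those at 0.23 and 0.06 did not (0.256 and 0.838).

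**Figure D2:**
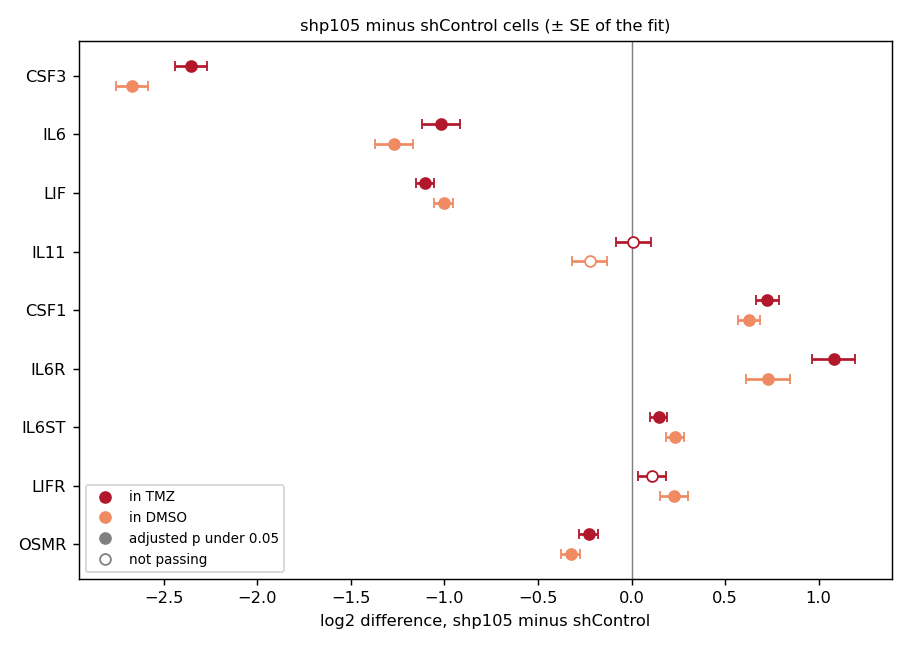
Log2 difference, shp105 minus shControl cells, of the 9 genes with TMZ (dark red) and with DMSO (orange), as the estimate ± SE of the limma fit. Filled points have an adjusted p under 0.05. CSF3 reaches -2.35 in TMZ and -2.67 in DMSO, whereas IL6R reaches 1.08 and 0.73.

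Among the receptor genes, IL6R had the largest line difference. IL6R encodes the chain that captures IL6 for gp130 and is also known as a shed, soluble receptor. Its levels were 7.16, 7.51 and 7.30 in shp105 cells with TMZ, against 6.31, 6.41 and 6.02 in shControl cells with TMZ. With DMSO they were 7.39, 7.26 and 7.31 in shp105 cells, against 6.76, 6.43 and 6.59 in shControl cells. The lowest shp105 array lay above the highest shControl array under either treatment. The difference was 1.08 (SE 0.12, adjusted p = 4.01e-05) in TMZ and 0.73 (SE 0.12, adjusted p = 0.000817) in DMSO. A second probe set was higher too, by 0.80 (adjusted p = 0.00922) in TMZ and 0.60 (adjusted p = 0.0442) in DMSO. The third stayed at or under 3.20 on all arrays, within the range of the background controls.

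IL6ST, which encodes gp130, had a small line difference. It read 11.81, 11.80 and 11.84 in shp105 cells with TMZ and 11.66, 11.72 and 11.65 in shControl cells with TMZ. With DMSO it read 11.99, 12.04 and 12.08 in shp105 cells and 11.82, 11.81 and 11.79 in shControl cells. The groups did not overlap, at a difference of 0.14 (SE 0.05, adjusted p = 0.0470) in TMZ and 0.23 (SE 0.05, adjusted p = 0.00404) in DMSO. The TMZ call was lost whichever of the 12 arrays was left out (adjusted p between 0.0548 and 0.144). A dimmer probe set was higher by 0.44 (adjusted p = 0.00236) in TMZ and 0.31 (adjusted p = 0.0211) in DMSO. With all probe sets averaged, the TMZ difference was 0.16 (adjusted p = 0.286). Of the other 5 probe sets of IL6ST none passed, and 2 of them stayed within the range of the background controls.

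OSMR, a receptor chain for oncostatin M and, together with IL31RA, for interleukin 31, was lower in shp105 cells. Its levels were 9.08, 9.18 and 9.16 in shp105 cells with TMZ, against 9.35, 9.40 and 9.36 in shControl cells with TMZ. They were 9.20, 9.29 and 9.16 in shp105 cells with DMSO, against 9.55, 9.55 and 9.53 in shControl cells with DMSO. The groups were apart under either treatment, by -0.23 (SE 0.05, adjusted p = 0.00718) in TMZ and -0.32 (SE 0.05, adjusted p = 0.000734) in DMSO. A second probe set differed by -0.35 in TMZ (adjusted p = 0.0762) and -0.45 in DMSO (adjusted p = 0.0264), and the third by -0.010 in TMZ and 0.024 in DMSO, neither of which passed. With the probe sets averaged, the TMZ difference of -0.20 did not pass (adjusted p = 0.0536).

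LIFR, the signalling partner of gp130 for LIF, had no uniform line difference across its 5 probe sets. The brightest read 9.53, 9.26 and 9.57 in shp105 and 9.33, 9.31 and 9.40 in shControl cells with TMZ, where the groups overlapped and the difference of 0.11 (SE 0.07) did not pass (adjusted p = 0.350). With DMSO it read 9.63 on all 3 shp105 arrays, against 9.40, 9.41 and 9.39 in shControl cells, a difference of 0.23 (SE 0.07, adjusted p = 0.0478). That call was lost when any 1 of the 6 DMSO arrays was left out (adjusted p between 0.0956 and 0.118) and likewise for each of the 3 shControl arrays with TMZ (between 0.0605 and 0.0673). With the probe sets averaged it was 0.00342 (adjusted p = 0.981). The shp105 array with the low TMZ value, replicate 2, decided the TMZ result, since the difference became 0.21 (adjusted p = 0.0128) without it. Of the other 4 probe sets, 1 differed by 0.29 and 3 by -0.36 to -0.016 in DMSO, and none of them passed there. In TMZ the first of these passed, at 0.42 (adjusted p = 0.0468), and the other 3 lay on the lower side, at -0.35, -0.21 and -0.15, without passing.

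**Figure D3:**
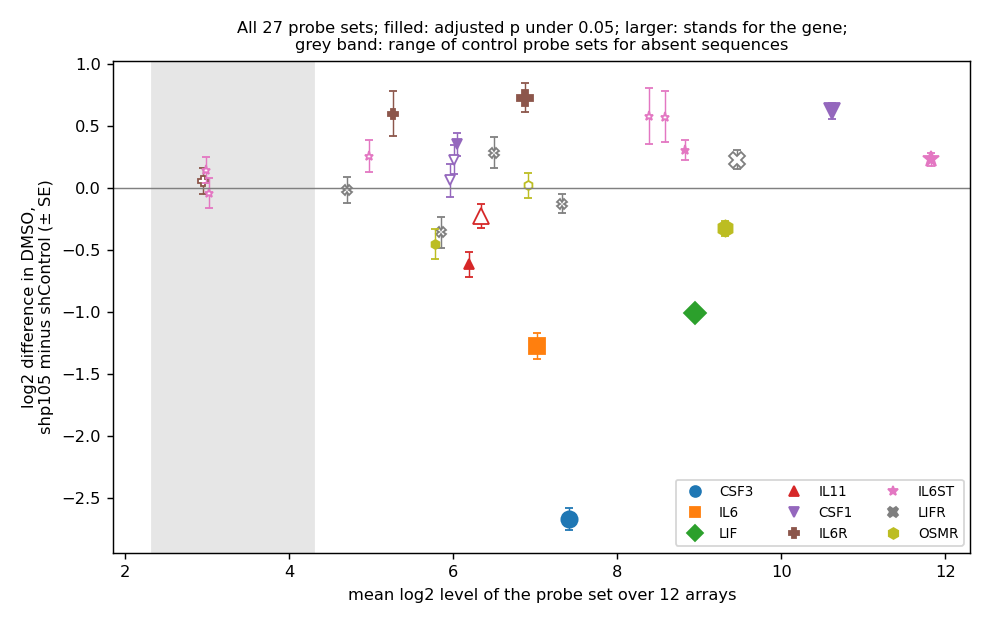
Log2 difference in DMSO, shp105 minus shControl (vertical axis, ± SE), of all 27 probe sets against their mean log2 level over 12 arrays (horizontal axis). Filled symbols have an adjusted p under 0.05 over all 41097 probe sets, larger symbols stand for the gene, and the grey band spans the background controls. LIFR and IL11 hold probe sets at clearly different differences, and 3 probe sets of IL6ST and IL6R lie inside the grey band.

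Over all 27 probe sets, 12 were called in TMZ, 7 higher and 5 lower in shp105 cells, and 12 in DMSO, 6 higher and 6 lower. Of all single-symbol probe sets, 15.4% were called in TMZ and 14.4% in DMSO. LIF, IL6 and CSF3 had 1 probe set each, so their values could not be compared within the gene.

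When each array's spike-in level was added to the fit, the differences of CSF3, IL6, LIF and CSF1 still passed under either treatment. In TMZ they were -2.27 (adjusted p = 2.74e-05) for CSF3, -1.43 (0.000165) for IL6, -1.05 (0.000108) for LIF and 0.79 (0.00285) for CSF1. In DMSO they were -2.56 (0.000105) for CSF3, -1.83 (0.000271) for IL6, -0.93 (0.00209) for LIF and 0.71 (0.0294) for CSF1. IL6R passed in TMZ (1.03, adjusted p = 0.0281) and not in DMSO (0.66, adjusted p = 0.346). IL6ST and OSMR passed under neither treatment, at 0.16 and -0.15 in TMZ and 0.25 and -0.22 in DMSO, and LIFR did not pass in DMSO (0.31, adjusted p = 0.512). The covariate lies close to the line itself, and the standard errors were larger, for example 0.29 for IL6R in DMSO. The mean spike-in level also went with treatment. It was 10.95 with TMZ and 10.63 with DMSO in shControl cells, and 11.32 and 11.13 in shp105 cells.

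The start regions of the genes that moved in opposite directions were set side by side, because NF-kB, AP-1 and C/EBP factors are known regulators of IL6. RefSeq windows (GRCh38.p14) from 250 bases before to 50 after the annotated start matched 6 of the 9 measured genes. LIF, CSF1 and CSF3 had no window and were not searched. The windows of the other genes were searched on either strand for the kB consensus, for the AP-1 motif TGANTCA, for the C/EBP motif TTNNGNAA and for the STAT motif TTCNNNGAA. Shown are IL6 (chr7:22726950-22727249, plus strand) and OSMR (chr5:38845762-38846061, plus strand), which were lower in shp105 cells, and IL6ST (chr5:55994914-55995213, minus strand) and IL6R (chr1:154405093-154405392, plus strand), which were higher. Each is written 5′ to 3′ along the gene, with matches to the kB, AP-1 and C/EBP motifs in capitals. A match on the opposite strand is printed as it reads along the gene, so its letters are the reverse complement of the motif.
IL6: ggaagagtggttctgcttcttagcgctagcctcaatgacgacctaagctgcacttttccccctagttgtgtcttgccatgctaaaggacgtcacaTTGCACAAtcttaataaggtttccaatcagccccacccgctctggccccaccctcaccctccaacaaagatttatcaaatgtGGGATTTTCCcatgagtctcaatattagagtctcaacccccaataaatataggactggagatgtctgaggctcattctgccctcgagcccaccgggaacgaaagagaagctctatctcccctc
OSMR: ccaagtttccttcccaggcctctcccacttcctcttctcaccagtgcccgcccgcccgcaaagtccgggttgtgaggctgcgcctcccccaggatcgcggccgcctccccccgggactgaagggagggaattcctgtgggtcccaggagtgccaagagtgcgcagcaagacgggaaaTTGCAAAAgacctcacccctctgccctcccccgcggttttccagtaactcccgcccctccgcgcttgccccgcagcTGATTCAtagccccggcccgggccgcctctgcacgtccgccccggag
IL6ST: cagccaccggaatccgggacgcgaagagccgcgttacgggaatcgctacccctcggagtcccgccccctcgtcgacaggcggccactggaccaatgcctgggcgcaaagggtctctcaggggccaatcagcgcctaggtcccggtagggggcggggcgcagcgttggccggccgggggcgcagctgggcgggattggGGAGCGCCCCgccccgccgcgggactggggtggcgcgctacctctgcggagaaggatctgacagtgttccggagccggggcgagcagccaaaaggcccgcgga
IL6R: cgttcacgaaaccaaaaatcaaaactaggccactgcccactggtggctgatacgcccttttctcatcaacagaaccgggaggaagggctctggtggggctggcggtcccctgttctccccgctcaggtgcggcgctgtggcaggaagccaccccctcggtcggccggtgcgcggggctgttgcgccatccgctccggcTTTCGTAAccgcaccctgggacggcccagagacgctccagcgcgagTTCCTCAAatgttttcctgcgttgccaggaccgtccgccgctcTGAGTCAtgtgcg

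The IL6 window held 1 kB match, GGGATTTTCC, at 73 to 64 bases before the start, and 1 C/EBP match on the opposite strand, TTGCACAA, at 155 to 148 bases before it. The IL6ST window held 1 kB match, GGAGCGCCCC, on the opposite strand. No kB match lay in the windows of IL6R, OSMR, IL11 or LIFR. AP-1 matches lay in the windows of IL11, at 96 to 90 bases before the start, and of OSMR and IL6R, after the start, and STAT matches in 2 of the 3 windows of LIFR. C/EBP matches also lay in the windows of OSMR, IL6R and LIFR. TTGCAAAA in OSMR and TTCCTCAA in IL6R were on the opposite strand, and TTTCGTAA in IL6R matched on either strand. None of these matches overlapped one of another motif. Of 34796 distinct RefSeq windows of 300 bases, 11.3% held a kB match, 7.73% an AP-1 match, 36.9% a C/EBP match and 7.67% a STAT match. A match here is a run of letters, and binding was not measured.

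TMZ changed none of the 9 genes beyond the threshold in either line. In shp105 cells 0 of 9 passed, where 0.865% of all genes were called, and 2 of 9 had an unadjusted p under 0.05, as did 16.3% of all genes. In shControl cells 0 of 9 passed, where 0.369% of all genes were called, and 4 of 9 had an unadjusted p under 0.05, as did 11.0% of all genes. The TMZ and DMSO arrays shared no range for 2 of the 9 genes in shp105 cells (20.4% of all genes) and for 6 of 9 in shControl cells (20.3% of all genes). These 6 were IL6, LIF, CSF3, IL6ST, OSMR and IL6R. The TMZ responses of each line share their DMSO arrays with the line difference in DMSO.

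Of the 6, IL6R had the largest value, with levels of 6.31, 6.41 and 6.02 in shControl cells with TMZ and 6.76, 6.43 and 6.59 with DMSO, a log2 difference of -0.35 (SE 0.12, adjusted p = 0.292). IL6 stood at 7.43 to 7.51 with TMZ and 7.53 to 7.84 with DMSO (-0.26, SE 0.10, adjusted p = 0.366). CSF3 stood at 8.54 to 8.60 with TMZ and 8.73 to 8.81 with DMSO (-0.19, SE 0.09, adjusted p = 0.455). These 3 values and those of OSMR (-0.17, adjusted p = 0.237) and IL6ST (-0.13, adjusted p = 0.326) were on the lower side with TMZ, and LIF was at 0.06 (adjusted p = 0.705).

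In shp105 cells the same genes gave -0.01 (SE 0.10) for IL6, 0.13 (SE 0.09) for CSF3, 0.00 (SE 0.12) for IL6R and -0.04 (SE 0.05) for LIF. The gene nearest to the threshold there was IL6ST, at -0.22 (SE 0.05, adjusted p = 0.0538), with 11.80 to 11.84 with TMZ and 11.99 to 12.08 with DMSO. It passed when genes below the median level were left out (adjusted p = 0.00786), under median centring (0.0300) or quantile normalization (0.0430), and with trend and robust eBayes (0.000733), all at a log2 difference between -0.26 and -0.22. The other IL6ST probe sets gave -0.31 to 0.14 and none of them passed (adjusted p of 0.351 or more), so the 7 probe sets did not move one way.

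**Figure D4:**
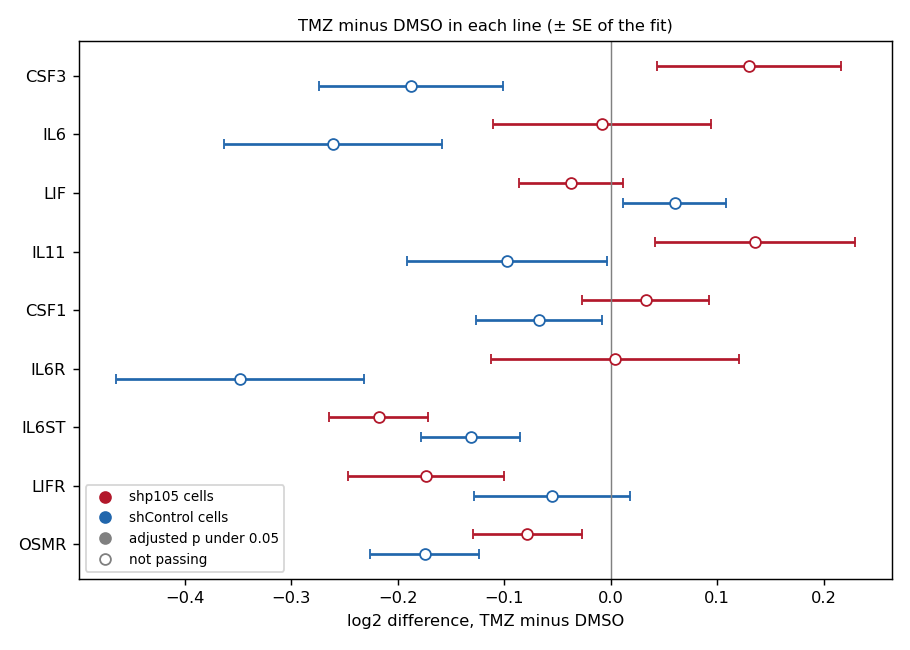
Log2 difference, TMZ minus DMSO, of the 9 genes in shp105 cells (red) and shControl cells (blue), as the estimate ± SE of the limma fit. Open points did not pass the test, and all 18 points are open. The values lie between -0.35 for IL6R in shControl cells and 0.14 for IL11 in shp105 cells.

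The difference between both TMZ responses, shp105 minus shControl, was tested directly and passed for 0 of the 9 genes and for 0% of all genes (1266 genes at an unadjusted p under 0.05). The largest values were 0.35 (SE 0.16, adjusted p = 0.775) for IL6R, 0.32 (SE 0.12, adjusted p = 0.763) for CSF3 and 0.25 (SE 0.14, adjusted p = 0.831) for IL6. At these standard errors, differences of about this size could not be told from 0, and they are not shown to be absent.

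Of 8 further ligands, 1 was higher and 0 lower in TMZ, where 21.1% of all genes were called, and 1 was higher and 1 lower in DMSO, where it was 19.9%. CNTF, IL3 and IL5 stayed at or below the highest background control on all arrays, so their differences cannot be read. EBI3, a subunit shared by interleukins of the IL12 family, was higher by 0.52 (SE 0.09, adjusted p = 0.000944) in TMZ and 0.41 (SE 0.09, adjusted p = 0.00449) in DMSO. Its arrays gave 4.59 to 4.87 in shp105 and 4.14 to 4.33 in shControl cells with TMZ, and 4.64 to 4.83 in shp105 and 4.30 to 4.40 in shControl cells with DMSO, so the shControl side lay near the background level and the size of the difference is uncertain. CTF1, cardiotrophin 1, was lower by -0.29 (SE 0.08, adjusted p = 0.0290) in DMSO. OSM, the ligand of OSMR, was at -0.03 (adjusted p = 0.875) in TMZ and 0.01 (adjusted p = 0.983) in DMSO. The median of the 8 was -0.05 in TMZ and -0.04 in DMSO.

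Of 8 further receptor genes, 1 was higher and 2 lower in TMZ and 2 were lower in DMSO (medians 0.05 and -0.04). The share of all genes called was 21.1% in TMZ and 19.9% in DMSO. CSF1R, the receptor of CSF1, was lower by -0.28 (SE 0.07, adjusted p = 0.0122) in TMZ and -0.34 (SE 0.07, adjusted p = 0.00386) in DMSO, opposite in sign to its ligand. IL31RA, the interleukin 31 receptor, was lower by -0.27 and -0.21, and CSF2RA, the alpha chain of the CSF2 receptor, was higher by 0.37 in TMZ, at 4.44 in shp105 and 4.07 in shControl cells, close to the highest background control. CSF3R, the receptor of CSF3, was not called (0.01 in TMZ and 0.04 in DMSO).

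Among 10 measured JAK-STAT and adaptor genes, STAT3, the main transcription factor of the pathway, was higher in shp105 cells under either treatment. It averaged 9.94 in shp105 and 9.42 in shControl cells with TMZ, and 9.88 in shp105 and 9.28 in shControl cells with DMSO, a difference of 0.52 (SE 0.04, adjusted p = 6.14e-06) in TMZ and 0.60 (SE 0.04, adjusted p = 1.78e-06) in DMSO. The kinase JAK2 was higher by 0.36 (SE 0.09, adjusted p = 0.0163) in DMSO, which made 2 higher and 0 lower there and 1 and 0 in TMZ. The other members, JAK1 and TYK2 among them, did not pass. The median of the 10 was -0.07 in TMZ and -0.06 in DMSO. The share of all genes called was 21.1% in TMZ and 19.9% in DMSO.

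Of 9 feedback genes, 3 were lower in TMZ, and 3 were lower and 1 higher in DMSO (medians -0.11 and -0.16). Beside these counts, 21.1% of all genes were called in TMZ and 19.9% in DMSO. SOCS3, the feedback inhibitor that binds gp130, was lower by -0.34 (SE 0.08, adjusted p = 0.00975) in DMSO and was at -0.13 (adjusted p = 0.280) in TMZ. SOCS2, known from growth hormone signalling, was lower by -0.50 (adjusted p = 0.0480) in TMZ and -0.63 (adjusted p = 0.0162) in DMSO. PTPN2, a phosphatase of JAK1 and STAT3, was lower by -0.27 and -0.35, and SOCS1, an inhibitor of JAK kinases, by -0.51 (adjusted p = 0.0156) in TMZ. PTPN1, another JAK phosphatase, was the higher one in DMSO, at 0.19.

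Of 14 genes known to respond to STAT3, 1 was higher and 4 lower in TMZ and 7 were lower in DMSO (medians -0.08 and -0.13). Of all genes, 10.1% were called higher and 11.0% lower in TMZ, and 8.34% higher and 11.6% lower in DMSO. TIMP1, a metalloproteinase inhibitor, was lower by -0.37 (SE 0.05) in TMZ and -0.30 (SE 0.05) in DMSO, and CCND1, cyclin D1, by -0.48 (SE 0.07) and -0.29 (SE 0.07). The transcription factor CEBPB was lower by -0.27 and -0.30, and JUNB, an AP-1 subunit, by -0.39 in DMSO. PIM1, a survival kinase, was higher by 0.33 (SE 0.08, adjusted p = 0.00764) in TMZ. These genes also respond to other pathways, and their differences were below 0.5 in size throughout.

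**Figure D5:**
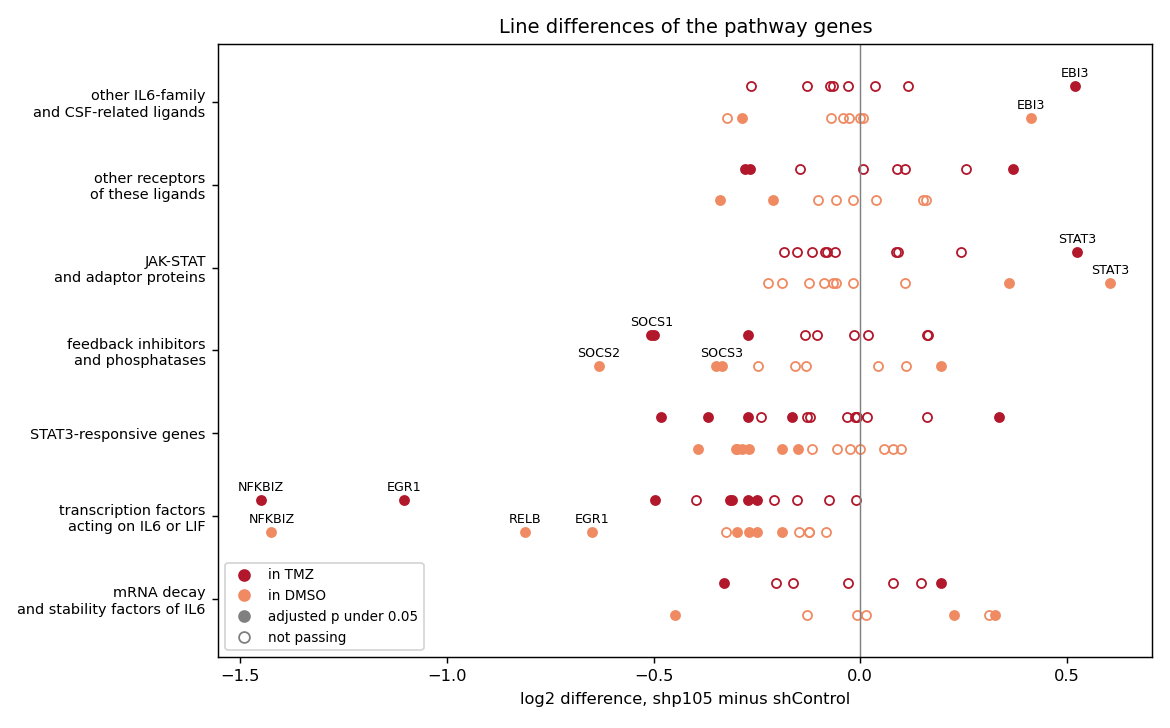
Log2 difference, shp105 minus shControl, of every measured gene of 7 lists around the cytokines, with TMZ in dark red and DMSO in orange. Filled points have an adjusted p under 0.05. STAT3 lies at 0.52 in TMZ and 0.60 in DMSO, and NFKBIZ at -1.45 and -1.42.

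Of 12 transcription factors that act on IL6 or LIF, 7 were lower in TMZ and 7 in DMSO, and none was higher (medians -0.29 and -0.26). Of all genes, 11.0% were called lower in TMZ and 11.6% in DMSO. The 7 in TMZ include NFKB1, the gene behind p105 (-0.25, adjusted p = 0.0204). CEBPB and CEBPD are among the 12 and were also counted among the STAT3-responsive genes. NFKBIZ, the IkB-zeta protein needed for IL6 induction in mouse macrophages, was lower by -1.45 (SE 0.07) in TMZ and -1.42 (SE 0.07) in DMSO. EGR1, an immediate early factor, was lower by -1.10 (SE 0.08) and -0.65 (SE 0.08), RELB, an NF-kB subunit, by -0.50 (SE 0.10) and -0.81 (SE 0.10), and FOSL1, an AP-1 subunit, by -0.31 and -0.25. Of 7 genes that govern the decay or stability of IL6 and similar mRNAs, 1 was higher and 1 lower in TMZ, and 2 were higher and 1 lower in DMSO (medians -0.03 and 0.01). Beside these counts, 21.1% of all genes were called in TMZ and 19.9% in DMSO. The decay factor ZFP36L2 was lower by -0.33 and -0.45 and its relative ZFP36L1 higher by 0.20 and 0.33, while ARID5A, which stabilizes IL6 mRNA, was higher by 0.23 in DMSO. TMZ moved no gene of these 7 lists past the threshold in either line. The nearest was CCND1 in shp105 cells (-0.35, adjusted p = 0.0533), and SOCS3 stood at -0.34 (adjusted p = 0.121) in shControl cells.

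The genes whose levels ran most like those of IL6 over the 12 arrays were FOXF1 (r = 0.992), OLFML2A (0.989) and LIN28B (0.987), among 1855 genes whose group means spanned at least 0.5 log2 units. For FOXF1, a forkhead transcription factor, r was 0.904 within the 6 shp105 arrays and 0.848 within the 6 shControl arrays. It was 0.629 and 0.902 for OLFML2A, and 0.942 and 0.670 for LIN28B. For LIF the nearest were CEP15 (r = 0.997), PAPSS2 (0.997) and MAGEC1 (0.997), with 0.573, 0.081 and 0.066 within the shp105 arrays and -0.110, 0.929 and 0.133 within the shControl arrays. Of the 1855 genes, 42 had an r above 0.99 with LIF, and 1 with IL6. The 12 arrays fall into 2 lines, so the values over 12 arrays mostly describe the line difference, which for CEP15 was -2.15 in TMZ and -2.18 in DMSO. The values within a line come from arrays that also served to pick these genes, and they span both treatments, so they are no separate test.

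Markers set the cells' identity beside these values. For the counts of called markers below, the share of all genes called was 21.1% in TMZ and 19.9% in DMSO. VIM and CD44, mesenchymal markers high in glioma lines, averaged 14.73 and 12.63 in shp105 cells with TMZ and 14.81 and 12.95 in shControl cells with TMZ. The astrocyte marker GFAP averaged 5.21 in shp105 cells and 5.05 in shControl cells with TMZ, and the neural progenitor gene SOX2 5.11 and 5.17. CD44 was lower by -0.32 in TMZ and -0.25 in DMSO, and OLIG2 higher by 1.37 and 1.22, which left 5 of 7 glioma and neural markers not passing under either treatment. PTPRC, which marks leukocytes, averaged 2.92 in shp105 and 3.23 in shControl cells with TMZ, within the background range. Of 12 leukocyte markers 1 (ITGAX, 0.35) was higher in TMZ and none passed in DMSO, 5 stayed at or below the highest background control on all arrays, and the summed linear signal was 282 to 302 in shp105 and 288 to 298 in shControl cells with TMZ, and 280 to 302 in shp105 and 286 to 311 in shControl cells with DMSO. Of 6 endothelial markers 1 was higher in TMZ, and 1 was higher and 1 lower in DMSO. TEK was higher by 1.54 in TMZ and 1.53 in DMSO, with shControl means of 4.29 and 4.26 at the background level, while KDR differed by -0.19 in TMZ (adjusted p = 0.116) and was lower by -0.56 in DMSO (adjusted p = 0.000268), with shp105 means of 4.26 and 4.23. The summed signal was 176 to 202 in shp105 and 151 to 164 in shControl cells with TMZ, and 177 to 205 in shp105 and 153 to 175 in shControl cells with DMSO. Of 6 epithelial markers 1 was higher and 1 lower in TMZ, and 2 were higher and 1 lower in DMSO. The keratin KRT8 was higher by 0.80 in TMZ and 0.69 in DMSO and its partner KRT18 by 0.33 in DMSO (adjusted p = 0.0247), while EPCAM was lower by -0.45 in TMZ (adjusted p = 0.0129) and -0.39 in DMSO (adjusted p = 0.0299), with summed signals of 207 to 223 in shp105 and 176 to 197 in shControl cells with TMZ, and 203 to 211 in shp105 and 174 to 181 in shControl cells with DMSO. In bulk RNA, fewer cells that express a gene and less RNA per cell cannot be told apart, and the part of these markers in the cytokine differences was not tested.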

How the data were processed

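RNA of 12 samples was hybridized to Affymetrix expression arrays. The authors deposited log2 expression levels, 1 column per array, made with RMA and Affymetrix Power Tools, per the submitters' processing notes. Tool versions, settings and filters: not given in the sources used here. The table held 54675 probe sets and no missing value. Of these, 41097 have a single symbol in the probe table for this array, updated through the RefSeq gene table, 1801 have several and 11777 no name. The brightest single-symbol probe set stood for each of 19775 genes. Summaries over arrays compress large differences and probe sets of a gene can read different transcripts, so levels of different genes were not compared.

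The 4 group means were fitted with limma 3.58.1 (lmFit and eBayes) in R 4.3.3 over all 12 arrays. The comparisons were the line difference under each treatment, the TMZ response of each line and the difference of these responses. Tests were 2-sided, with Benjamini-Hochberg adjustment over all genes. Errors of differences are standard errors of that fit, and the number of arrays limits the precision. The fit was tested on simulated data. Motifs were searched and plots drawn with Python 3.11.15, pandas 2.3.3, numpy 2.4.6 and matplotlib 3.10.9, and the R package data.table was at version 1.17.8.

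The genes and lists were chosen with earlier results of these data known. Named were all measured genes of the set, NFKB1, of each list up to 4 called genes by smallest p per comparison, and the 3 genes most correlated with IL6 and with LIF. OSM, JAK1, TYK2, CSF3R, VIM, GFAP, SOX2 and PTPRC were added for their role. The alternatives were other gene summaries, a filter on dim genes, 2 further normalizations, array weights, other eBayes settings, a fit of only the compared groups, a replicate block, the spike-in level as a covariate, a stricter threshold, and each array left out in turn.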

Additional observations from a re-analysis of the deposited data

How the results depend on the processing

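The line differences of CSF3, IL6, LIF and CSF1 passed in all 21 refits under either treatment, and of the TMZ responses of the 9 genes only that of IL6ST in shp105 cells passed in any refit. Reading a gene from a single dimmer probe set is not among these refits. Some dimmer probe sets of CSF1 did not pass (adjusted p = 0.114 in TMZ, 0.256 and 0.838 in DMSO). Sign changes of values that passed in neither setting are not counted here. Leaving out each array in turn gave 7 to 8 genes of the set called between the lines in DMSO and 6 to 7 in TMZ. Of all genes, 15.4% to 21.1% were then called in DMSO and 16.3% to 20.5% in TMZ. Over all genes, the share called is given as a percent of those tested. With the spike-in covariate it was 5.28% between the lines in TMZ and 2.64% in DMSO, where 4 genes of the set were called, and 0.0657% (shp105) and 0% (shControl) for the TMZ responses. With each probe set on its own, 12 of the 27 probe sets of the 9 genes were called between the lines in TMZ. Over all probe sets the share was 15.4% in TMZ, 14.4% in DMSO and 0.234% for the TMZ response of shp105 cells. At an adjusted p under 0.01 the shares were 13.0% in TMZ, 12.3% in DMSO, 0.197% (TMZ response, shp105) and 0.0759% (shControl). For the TMZ responses of shp105 and shControl cells, against 0.865% and 0.369%, the shares were 9.14% and 2.94% without dim genes, 0.531% and 0.753% with array weights, 4.74% and 1.81% with trend and robust eBayes, 0.0101% and 0.0961% with only the compared groups, and 0.248% to 0.951% and 0.0809% to 0.384% without 1 array. Averaged probe sets gave 0.228% in shControl cells. In shp105 cells 1 gene of the set, IL6ST, was called under the dim filter, under either normalization and with trend and robust eBayes. The difference of responses had 0.0809% called without dim genes and 0.0607% with trend and robust eBayes. The cause of these changes was not tested.

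Averaging probe sets turned IL11 in TMZ to -0.40 (adjusted p = 0.000983), as its dimmer probe set did alone (-0.80), and called IL11 in DMSO (-0.42, adjusted p = 0.000664). It ended the calls of LIFR in DMSO (0.00342, adjusted p = 0.981) and, in TMZ, of IL6ST (0.16, 0.286) and OSMR (-0.20, 0.0536). With only the compared groups, IL6ST in TMZ was not called (0.137). Apart from the dimmer IL11 probe set in TMZ, which passed (-0.80), no probe set on the other side of 0 from the gene's value passed. In DMSO these were of OSMR (0.024), LIFR (-0.36, -0.12 and -0.016) and IL6ST (-0.037). In TMZ they were of IL6ST (-0.23 and -0.083), IL6R (-0.093) and LIFR (-0.35, -0.21 and -0.15).

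The replicate numbers did not pair the arrays. Deviations of same-numbered arrays correlated at -0.14 to 0.12, and in 13 of 36 comparisons an array correlated best with its own number in another group. With the replicate block, 0.425% and 0.152% of genes were called for the TMZ responses of shp105 and shControl cells, and IL6ST in TMZ (adjusted p = 0.0800) and LIFR in DMSO (0.0546) were not called.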
